A study of Mus musculus with 4 samples.

Results

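The striatum of mice homozygous for the HDQ150 allele of the Huntington's disease gene was compared with that of wild-type mice, gene by gene. The members are the 12966 named genes with a mean of at least 1 FPKM over the series' 4 libraries, of 29144 features in the table, 23210 of them named. FPKM counts the fragments of a gene per kilobase of transcript, scaled to the size of the library, so that it sets a level per length. Leaving out 89 short non-coding and ribosomal RNA genes left 12877 genes to compare. The series holds poly A+ RNA sequencing of dissected striatum from a set of knock-in lines on the C57BL/6J background, all 21 weeks old after birth. HDQ+/+ is the wild type and HDQ150/150 carries the mutant allele on both chromosomes. HDQ200/200, also homozygous, and the heterozygous HDQ315/+ serve here only to show where the other libraries lay. Each genotype has 1 library. No treatment is named for any group. The sources used here do not say which sex the animals were, how many stood behind a library or whether tissue was combined, and they do not define the number in an allele's name. With 1 library on each side there is no spread between animals, so no p-value is given, and every difference below is a difference between these libraries. Brackets of uncertainty are 95% exact Clopper-Pearson intervals on the fragments of both libraries, and they cover counting error only.

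Huntington's disease follows from a lengthened CAG repeat in HTT, which extends a run of glutamines near the start of the huntingtin protein. The striatum is the part of the brain it affects most, and within it the GABAergic projection neurons, which make up nearly all striatal nerve cells. Those of the direct pathway carry the D1 dopamine receptor with dynorphin and substance P. Those of the indirect pathway carry the D2 receptor, an adenosine receptor and enkephalin. Both depend on a dopamine-driven cyclic AMP cascade centred on DARPP-32. The striatum lies under the cortex and beside the lateral ventricle with its choroid plexus and ependyma, so a dissection can carry more or less of these neighbours.

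The table held 3.69e+07 fragments in the wild type and 2.51e+07 in HDQ150/150, with HDQ200/200 at 3.35e+07 and HDQ315/+ at 2.63e+07. Genes of the mitochondrial genome took 7.53% of the counts in HDQ+/+ and 15.4% in HDQ150/150. Part of that gap lies in features listed at exactly 0: mt-Co1 is listed at 0 in all libraries but HDQ150/150, and the merged feature of mt-Atp6, mt-Atp8 and mt-Co3 is listed at 0 in HDQ+/+ and HDQ315/+. Without these features the shares were 7.53% and 9.30%. Both libraries of the comparison held Xist, the transcript that silences an X chromosome in females, and transcripts of the Y-linked genes, Xist at 24.3 FPKM in HDQ+/+ and 17.4 in HDQ150/150, and Ddx3y at 7.43 and 4.56.

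Htt itself was read first, since it carries the mutated repeat (chromosome 5, 34761740 to 34912521, mm10). It stood at 7.56 FPKM in the wild type and 4.42 in HDQ150/150, with HDQ200/200 at 7.68 and HDQ315/+ at 4.78, from 4120, 1578, 3722 and 1808 fragments. HDQ150/150 held the lowest level and HDQ+/+ lay close to HDQ200/200. On the scale used throughout, the log2 ratio of FPKM + 1, Htt was at −0.66 in HDQ150/150 relative to HDQ+/+. The ratio of scaled counts was 0.623 (95% interval 0.588 to 0.661). A correction for transcript length, which removes a smooth trend of the ratios with length, brought the value to −0.53, under the 1.5-fold size that counts as a call here. Of the 48 genes tested within 2 megabases of Htt, which include Htt, none was higher and Htt alone was lower, with a median of 0.03. Over all genes tested, 2.91% were higher and 3.32% lower. Few calls would be met among 48 genes at these shares, so the count is a description. The neighbours nearest the call size were Zfyve28 at −0.58, Adra2c, an adrenergic receptor gene, at −0.56, and Ywhah, a 14-3-3 protein gene, at 0.53. Zfyve28 and Adra2c passed the size with a pseudocount of 0.1, as did Uvssa and Dok7, which on scaled counts lay at −0.65 and 0.71.

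Genes were called higher or lower from a 1.5-fold difference of FPKM + 1, a log2 ratio of 0.585. In HDQ150/150, 375 genes were higher, which is 2.91% of the 12877 tested, and 428 were lower, which is 3.32%. Differences in either direction thus covered 6.24% of the genes, and these shares are the background for every gene group below. On scaled counts the balance turned, with 694 genes higher and 595 lower, so that 53.8% of the calls were higher against 46.7% on FPKM. The median log2 ratio over all genes was −0.01 on FPKM and 0.04 on scaled counts. Most differences were of modest size: 93 of the higher and 94 of the lower genes passed 2-fold, and 2 and 7 passed 4-fold, the 2 higher ones being the mitochondrial features listed at 0 in HDQ+/+. The counting interval of the ratio lay clear of 1 for 374 of the higher and 422 of the lower genes. These genes were chosen by the ratio of the same libraries, so these counts are a description and no check on the calls. Just inside the call size lay Atp6v1g2 at 0.586 and Echdc2 at 0.588, with Asb6 and 9430021M05Rik just outside at 0.584. On the lower side E130309F12Rik at −0.586 and Cd72 at −0.585 lay inside, and Usp28 at −0.585 and Foxj1 at −0.584 lay outside.

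**Figure D1:**
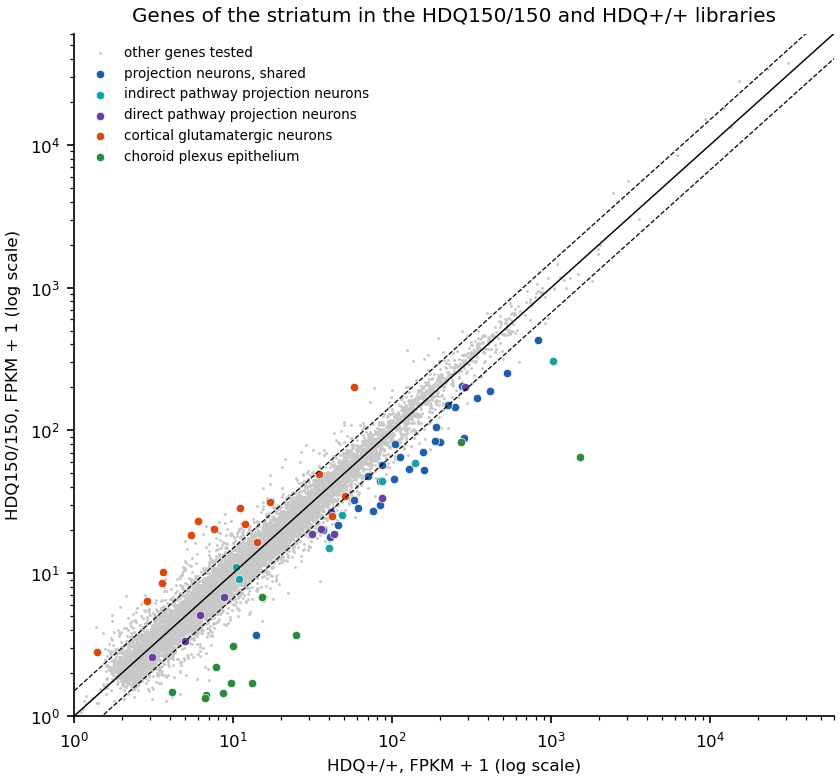
Each point is 1 gene, with its FPKM + 1 in the HDQ+/+ library on the horizontal axis and in the HDQ150/150 library on the vertical axis, both on log scales, and dashed lines mark the 1.5-fold size. Projection neuron genes lie mostly below the lower dashed line, choroid plexus genes lie farthest below it, and 11 of 15 cortical glutamatergic genes lie above the upper line.

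The lowest and highest ends of the comparison had different characters. Of the 12 lowest genes, 8 belong to the choroid plexus list used below, led by Ttr, the transthyretin gene, at −4.55. Among these 8, Sostdc1, Kcnj13 and Kcne2 passed the filter on the mean only through HDQ+/+, so the count is a description. Apart from the mitochondrial features, the 12 highest were led by genes of cortical excitatory neurons: Slc30a3 at 1.95, Slc17a7 at 1.79 and Neurod2 at 1.79. Promoter sequence is shown for 4 of these genes, 1 from the projection neurons, 2 from the cortical neurons and 1 from the choroid plexus, because they stand at or near the top of the 3 groups that differed most. The windows are from RefSeq on GRCm38.p6, run from 250 bases before the annotated start to 50 after it, and read 5′ to 3′ on the gene's strand. Capitals mark 3 motifs or their reverse complements: the GC box GGGCGG, the cyclic AMP response element core TGACG and the E box CAGATG that NeuroD-type factors can bind.
Ryr1, chr7:29125102-29125401, minus strand: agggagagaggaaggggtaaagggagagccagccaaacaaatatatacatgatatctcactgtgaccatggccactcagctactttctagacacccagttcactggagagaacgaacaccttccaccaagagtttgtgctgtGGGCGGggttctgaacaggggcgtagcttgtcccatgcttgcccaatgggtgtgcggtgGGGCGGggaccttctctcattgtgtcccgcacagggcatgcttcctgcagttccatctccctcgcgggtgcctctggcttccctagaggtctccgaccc
Slc17a7, chr7:45163671-45163970, plus strand: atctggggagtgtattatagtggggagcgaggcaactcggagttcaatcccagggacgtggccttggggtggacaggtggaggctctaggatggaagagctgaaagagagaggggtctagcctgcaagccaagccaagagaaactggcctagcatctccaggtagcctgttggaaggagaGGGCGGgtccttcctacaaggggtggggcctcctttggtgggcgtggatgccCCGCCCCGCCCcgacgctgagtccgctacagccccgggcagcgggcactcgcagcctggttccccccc
Neurod2, chr11:98329596-98329895, minus strand: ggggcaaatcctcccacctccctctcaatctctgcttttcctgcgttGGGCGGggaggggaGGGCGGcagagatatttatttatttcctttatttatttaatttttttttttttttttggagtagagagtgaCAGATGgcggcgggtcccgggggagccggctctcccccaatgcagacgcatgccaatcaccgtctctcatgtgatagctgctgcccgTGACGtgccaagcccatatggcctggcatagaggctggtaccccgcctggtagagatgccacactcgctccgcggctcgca
Kl, chr5:150952357-150952656, plus strand: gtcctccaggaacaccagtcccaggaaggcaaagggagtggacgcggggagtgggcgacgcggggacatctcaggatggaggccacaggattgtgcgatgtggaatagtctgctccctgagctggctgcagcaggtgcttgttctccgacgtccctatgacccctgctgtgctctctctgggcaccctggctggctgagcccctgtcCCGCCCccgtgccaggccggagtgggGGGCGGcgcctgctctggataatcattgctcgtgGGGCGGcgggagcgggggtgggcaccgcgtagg

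Each of these 4 windows held at least 2 GC boxes. Those of Ryr1 began 108 and 49 bases before the start, and those of Slc17a7 began 70, 18 and 13 bases before it, the last pair running into each other on the opposite strand. Kl had them 43 and 17 bases before the start and at position 18 after it. Neurod2 was the window that held all 3 motifs, with GC boxes 203 and 189 bases before the start, the E box at 118 and the cyclic AMP core at 31. Promoters were found for 10004 of the 12877 genes, which have 9929 distinct names. The GC box occurred at least once in 65.3% of all these promoters, in 57.4% of those of higher genes and in 59.4% of those of lower genes. The share of promoters with at least 2 was not counted, so the 4 windows have no matching background. TGACG occurred in 32.1% of all, 24.9% of higher and 21.6% of lower promoters. CAGATG occurred in 11.2% of all, 15.1% of higher and 12.5% of lower promoters, and the TATA sequence TATAAA in 6.70%, 7.55% and 11.9%. These matches describe letters in a window, and binding was not measured.

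Genes that the projection neurons of both pathways share were lower in HDQ150/150. All 28 listed genes had a log2 ratio below 0, 24 were called lower and none higher, and the median was −1.08, where 3.32% of all genes were lower and their median was −0.01. Their summed level was 2566 FPKM in HDQ150/150 against 5104 in HDQ+/+, with 2823 in HDQ200/200 and 3486 in HDQ315/+. HDQ150/150 held the lowest of the 4 levels for 20 of the 28 genes, and HDQ+/+ held the highest for 26. Over all 12877 genes, HDQ150/150 was lowest for 2376 and HDQ+/+ highest for 2027. Of the 24 calls, 23 held under median centring, upper quartile scaling, scaled counts and length correction, where these gave a value. These are the processing alternatives that can end a call. The exception was Gnal, which encodes the G protein alpha subunit that couples dopamine receptors to adenylyl cyclase: it lay at −0.59, a call that ended with median centring and with length correction.

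Ryr1, a ryanodine receptor that releases calcium from internal stores (chromosome 7, 29003340 to 29125151), was the lowest of the shared genes. It stood at 12.8 FPKM in the wild type and 2.70 in HDQ150/150, with HDQ200/200 at 3.73 and HDQ315/+ at 5.10. All 3 mutant libraries lay far under HDQ+/+, with HDQ150/150 lowest at a log2 ratio of −1.90 and a scaled count ratio of 0.217 (95% interval 0.197 to 0.238). Scn4b, a sodium channel beta subunit, stood at 86.8 FPKM in HDQ150/150 against 284 in HDQ+/+, with 119 in HDQ200/200 and 117 in HDQ315/+, again with HDQ150/150 lowest (−1.70). Pde10a, the phosphodiesterase best known from these neurons, stood at 157 FPKM in the wild type and 51.4 in HDQ150/150, with HDQ200/200 at 113 and HDQ315/+ at 69.2. Here HDQ200/200 lay nearer to HDQ+/+ than to HDQ150/150, whose log2 ratio was −1.59. Cnr1, the CB1 cannabinoid receptor gene, was at −1.48, Pde7b, another cyclic AMP phosphodiesterase gene, at −1.47, and Rgs9, which speeds the shut-off of G protein signals, at −1.27.

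Ppp1r1b, which encodes DARPP-32 (chromosome 11, 98348738 to 98358283), defines this cell class and was among the most abundant members. It stood at 425 FPKM in HDQ150/150 against 829.8 in HDQ+/+, with 293 in HDQ200/200 and 602 in HDQ315/+, a log2 ratio of −0.96 in HDQ150/150, where HDQ200/200 was lower still. The 4 shared genes under the call size were Tmem158 at −0.58, the inward rectifier gene Kcnj4 at −0.56, the G protein gamma subunit gene Gng7 at −0.43 and the potassium channel interacting protein gene Kcnip2 at −0.38. Tmem158 and Kcnj4 passed the size after length correction. The remaining shared genes lay between −0.76 and −1.24.

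Direct pathway genes were lower in 5 of 10 cases and higher in none, with a median of −0.59. Drd1a encodes the D1 dopamine receptor (chromosome 13, 54050851 to 54055658) and stood at 85.9 FPKM in the wild type and 32.7 in HDQ150/150, with HDQ200/200 at 51.5 and HDQ315/+ at 44.7. HDQ150/150 held the lowest level, at −1.37, with a scaled count ratio of 0.397 (95% interval 0.379 to 0.414). Pdyn, the dynorphin precursor gene, stood at 17.9 FPKM in HDQ150/150 against 41.9 in HDQ+/+, with 22.7 in HDQ200/200 and 25.3 in HDQ315/+ and was also lowest in HDQ150/150 (−1.19). Chrm4, the muscarinic M4 receptor gene that dampens D1 signalling, was at −0.81, Slc35d3, which promotes D1 receptor export to the cell surface, at −0.74, and the mitochondrial carrier gene Sfxn1 at −0.62, a call that ended on scaled counts. Tac1, the substance P precursor gene, stood at 286 FPKM in the wild type and 200.3 in HDQ150/150, with HDQ200/200 at 164 and HDQ315/+ at 298. That is a log2 ratio of −0.51, under the call size as deposited and past it after length correction. The developmental regulators Ebf1 (−0.56, past the size with a pseudocount of 0.1 or scaled counts), Isl1 (−0.37), Zfp521 (−0.28) and Eya1 (−0.24) were all under the call size.

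Indirect pathway genes were lower in 5 of 7 cases and higher in none, with a median of −0.98. Penk, the enkephalin precursor gene (chromosome 4, 4133536 to 4139032), was the most abundant and the lowest by ratio. It stood at 305 FPKM in HDQ150/150 against 1029.5 in HDQ+/+, with 247 in HDQ200/200 and 569.9 in HDQ315/+, so that each mutant library lay well under HDQ+/+ and HDQ200/200 was lowest. The log2 ratio in HDQ150/150 was −1.75 and the scaled count ratio 0.309 (95% interval 0.303 to 0.315). Gpr52, an orphan receptor gene, was at −1.41, and Adora2a, the adenosine receptor gene of these neurons, stood at 139 FPKM in the wild type and 57.7 in HDQ150/150, with HDQ200/200 at 51.7 and HDQ315/+ at 76.8 (−1.26), with HDQ200/200 lowest. Drd2, the D2 dopamine receptor gene (chromosome 9, 49340662 to 49427021), stood at 42.9 FPKM in HDQ150/150 against 85.5 in HDQ+/+, with 50.8 in HDQ200/200 and 62.1 in HDQ315/+ (−0.98), and the orphan receptor gene Gpr6 was at −0.92. The transcription factor gene Sp9 (−0.25) and the kainate receptor gene Grik3 (0.07) were under the call size. The difference between the medians of the pathways was not tested.

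**Figure D2:**
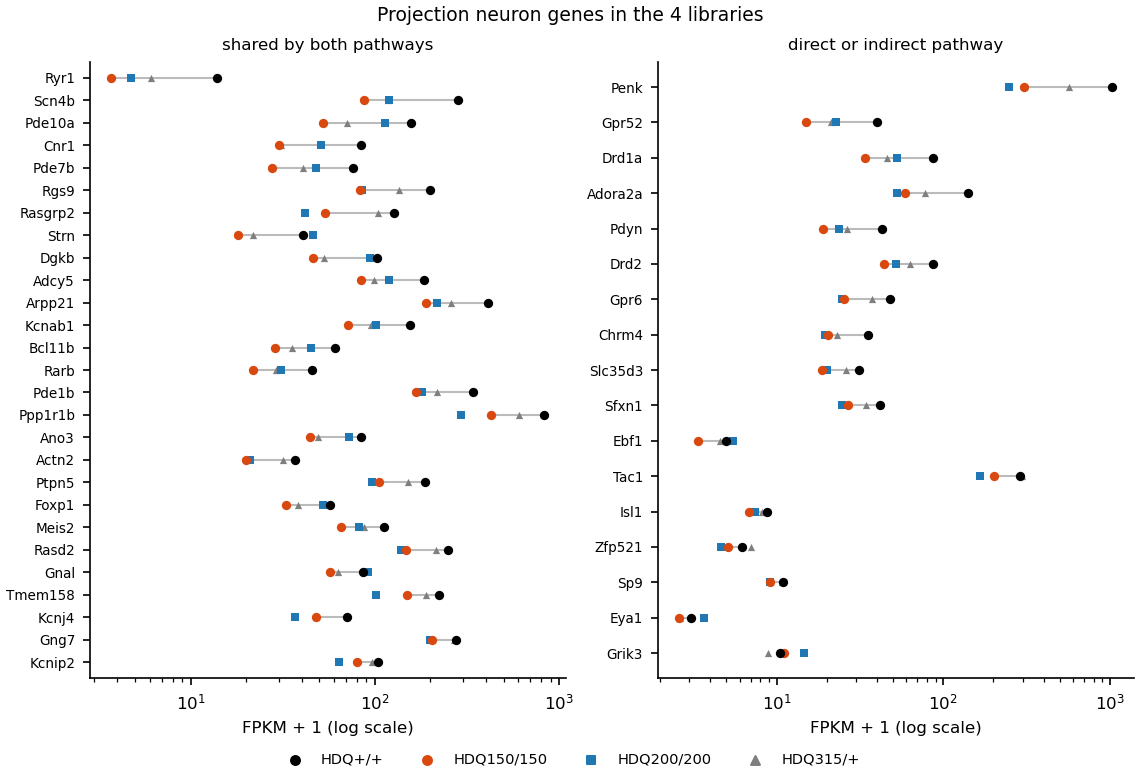
FPKM + 1 on a log scale for 27 of the 28 genes shared by both pathways and for 17 genes of the direct or indirect pathway, with 1 marker for each of the 4 libraries and a grey line joining HDQ+/+ to HDQ150/150. HDQ+/+ is the highest of the 4 libraries for 25 of the 27 shared genes drawn, and HDQ150/150 the lowest for 19 of them.

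In bulk tissue, fewer cells of a type and less RNA per cell cannot be told apart. Markers of other tissues also differed between the libraries compared, in opposite directions. The summed level of the 15 cortical glutamatergic genes was 254 FPKM in the wild type and 483 in HDQ150/150, with HDQ200/200 at 348 and HDQ315/+ at 243. The summed level of the 12 choroid plexus genes measured was 160.1 FPKM in HDQ150/150 against 1887 in HDQ+/+, with 159 in HDQ200/200 and 429 in HDQ315/+. None of these markers was listed at 0 in either library of the comparison, and their part in the projection neuron result was not tested.

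Genes of cortical glutamatergic neurons had the highest median of the 49 gene lists. Of 15 listed genes, 11 were called higher and 1 lower, with a median of 1.15, where 2.91% of all genes were higher. All 11 higher calls held under every processing alternative that could be computed. Slc17a7, the vesicular glutamate transporter of cortical neurons (chromosome 7, 45163921 to 45176139), whose promoter is printed above, stood at 57.0 FPKM in the wild type and 199 in HDQ150/150, with HDQ200/200 at 106 and HDQ315/+ at 71.7. HDQ150/150 lay above all other libraries, HDQ200/200 came next, and HDQ315/+ was nearest to HDQ+/+. Its log2 ratio was 1.79 and its scaled count ratio 3.59 (95% interval 3.48 to 3.70). Slc30a3, which loads zinc into glutamatergic vesicles (chromosome 5, 31086106 to 31093527), stood at 22.2 FPKM in HDQ150/150 against 4.99 in HDQ+/+, with 8.83 in HDQ200/200 and 7.66 in HDQ315/+, also highest in HDQ150/150 (1.95).

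The transcription factors that specify these neurons took the same direction. Neurod2 stood at 4.39 FPKM in the wild type and 17.6 in HDQ150/150, with HDQ200/200 at 9.01 and HDQ315/+ at 8.53 (1.79), and Neurod6 at 19.5 FPKM in HDQ150/150 against 6.55 in HDQ+/+, with 14.0 in HDQ200/200 and 18.9 in HDQ315/+ (1.44). The first was highest in HDQ150/150 by a wide margin, while the second was about as high in HDQ315/+. Emx1, a regional factor of the developing cortex, was at 1.5, and Tbr1, a factor of deep-layer neurons, at 1.38. Tbr1 stood at 9.97 FPKM in the wild type and 27.5 in HDQ150/150, with HDQ200/200 at 18.4 and HDQ315/+ at 6.13, with HDQ315/+ under HDQ+/+. Bhlhe22 was at 1.15 and Neurod1 at 1.02. Not every listed gene followed: Sv2b, a synaptic vesicle gene, was at 0.51, Kcnv1 at 0.22, the kinase gene Camk4 at −0.54 and the activity-induced factor gene Egr3 at −0.72, the last called lower. Striatal projection neurons express Camk4 and Egr3 as well.

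Genes that mark single cortical layers differed less uniformly. In the upper layers and layer 4, 2 of 12 genes were higher and none lower, Cux2 at 0.93 and Rorb at 0.60. Their median was 0.21, turning to −0.05 among genes with a mean of at least 10 FPKM. In layer 5, Fezf2, the factor that specifies neurons projecting below the cortex, was higher (1.27) and Pcp4 lower (−0.70), the other 6 of 8 lying under the call size. Pcp4 is also abundant in the striatum, at 1795 FPKM in HDQ+/+ and 1104 in HDQ150/150. In layer 6, subplate and claustrum, 5 of 14 genes were higher and 2 lower: Rprm (1.30), Cplx3 (0.98), Nr4a2 (0.85), Ctgf (0.84) and the merged feature of Ntng2 (0.70) were higher, and Syt6 (−0.78) and Sulf1 (−0.63) were lower. The Sulf1 call ended with length correction.

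Marker lists of other forebrain regions were short and held at most 1 call in each direction. A call was 9.09% of the thalamic, 12.5% of the pallidal and 33.3% of the hypothalamic genes tested. Of all genes, 2.91% were higher and 3.32% lower. No hippocampal gene of 7 was called, though 6 had a ratio below 0 and the median was −0.40. Among 11 thalamic genes, Slc17a6, the vesicular glutamate transporter of subcortical neurons, was higher (1.02) and Synpo2 lower (−0.60, ended with length correction). Slc17a6 stood at 3.66 FPKM in HDQ150/150 against 1.30 in HDQ+/+, with 2.71 in HDQ200/200 and 14.8 in HDQ315/+, with HDQ315/+ far above the rest. The defining thalamic genes Tcf7l2 (0.02) and Prkcd (−0.13) did not differ by the call size between the libraries compared. Of 8 genes of the globus pallidus and basal forebrain, Pvalb was higher (0.68, ended with length correction) and the transcription factor gene Nkx2-1 lower (−0.70). Of 10 hypothalamic peptide genes, 3 passed the filter, and Pomc was lower (−0.78) at 2.56 and 1.08 FPKM.

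Choroid plexus genes had the lowest median of the 49 lists. The choroid plexus is the epithelium that makes cerebrospinal fluid in the ventricles, and transthyretin is its main secreted protein. Of 19 listed genes, 12 passed the filter on the mean and all 12 were lower, with log2 ratios from −1.16 to −4.55. Kcne2, Kcnj13, Sostdc1 and Otx2 had a mean under 1 FPKM over the mutant libraries and passed only through HDQ+/+, so the count is a description. The other 7 had a mean under 1 FPKM, with levels of 1.38 to 2.95 FPKM in HDQ+/+ and 0.0529 to 0.494 in HDQ150/150. HDQ+/+ was the highest of the 4 libraries for each of the 12.

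Ttr (chromosome 18, 20665250 to 20674326) stood at 1519.9 FPKM in the wild type and 63.9 in HDQ150/150, with HDQ200/200 at 49.2 and HDQ315/+ at 305, from 61458, 1643, 1726 and 8474 fragments. HDQ+/+ lay far above all mutant libraries, and HDQ150/150 and HDQ200/200 were close together. The scaled count ratio in HDQ150/150 was 0.0435 (95% interval 0.0414 to 0.0457). Kl, the klotho gene (chromosome 5, 150952607 to 150993817), stood at 0.694 FPKM in HDQ150/150 against 12.1 in HDQ+/+, with 1.24 in HDQ200/200 and 1.93 in HDQ315/+, a log2 ratio of −2.95. Folr1, the folate receptor that carries folate into cerebrospinal fluid, was at −2.49, Sostdc1, a secreted antagonist of BMP and Wnt signals, at −2.57, and 1500015O10Rik at −2.74. The channel genes Kcnj13 (−2.32) and Kcne2 (−2.27) and the calmodulin-like gene Calml4 (−1.83) followed, and Otx2, the factor that maintains this epithelium, was at −1.50. Enpp2, which encodes autotaxin, was the second most abundant member at 271 FPKM in the wild type and 81.4 in HDQ150/150, with HDQ200/200 at 95.9 and HDQ315/+ at 94.8 (−1.72). Oligodendrocytes also express Enpp2.

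The ependyma, the ciliated lining of the ventricle, held lower genes too. Of 14 listed genes, 11 were tested, 8 were lower and none was higher, with a median of −0.78. Their summed level was 31.1 FPKM in HDQ150/150 against 57.4 in HDQ+/+, with 31.9 in HDQ200/200 and 70.5 in HDQ315/+. HDQ150/150 was the lowest of the 4 libraries for 9 of the 11 genes, and HDQ+/+ the highest for 5, unlike the choroid plexus genes. Among genes with a mean of at least 10 FPKM the median was −0.36, under the call size. The radial spoke gene Rsph1 was at −1.10, the dynein light chain gene Dnali1 at −1.02, 1700009P17Rik at −0.96, Dynlrb2 at −0.92 and Ccdc153 at −0.84. Foxj1, the master factor of motile cilia, stood at 3.19 FPKM in HDQ150/150 against 5.28 in HDQ+/+, with 3.36 in HDQ200/200 and 5.004 in HDQ315/+. That put HDQ150/150 just short of the call size (−0.58), which it passed with a pseudocount of 0.1, upper quartile scaling, scaled counts or length correction. HDQ315/+ lay close to HDQ+/+ for Foxj1. Of 8 meningeal fibroblast genes tested, 2 were lower, the sulfate transporter gene Slc13a4 (−1.43) and Igfbp2 (−0.93), which the choroid plexus also expresses. The median of the 8 was −0.47, with 6 below 0 and 2 above. With a pseudocount of 0.1 and on scaled counts this median was −0.60, past the call size. Among genes with a mean of at least 10 FPKM it was −0.93.

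**Figure D3:**
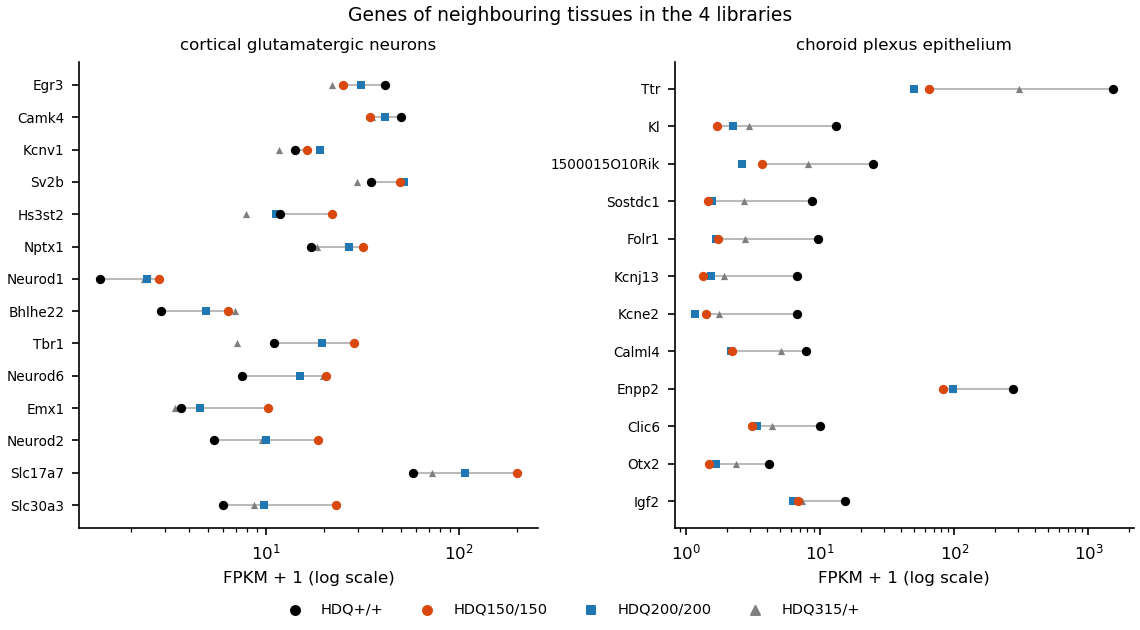
FPKM + 1 on a log scale for 14 of the 15 cortical glutamatergic genes and the 12 choroid plexus genes that passed the filter, with 1 marker for each of the 4 libraries and a grey line joining HDQ+/+ to HDQ150/150. HDQ150/150 is the highest library for 9 of the 14 cortical genes drawn, and HDQ+/+ is the highest for all 12 choroid plexus genes. Kcne2, Kcnj13, Sostdc1 and Otx2 passed the filter only through HDQ+/+, so the latter count is a description. Over all 12877 genes, HDQ150/150 was highest for 1961 and HDQ+/+ for 2027.

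Within the dopamine, adenosine and muscarinic receptor families, 4 of 10 genes tested were lower and none was higher. The median of the 10 was −0.05, and −0.89 among genes with a mean of at least 10 FPKM. Drd1a, Drd2, Adora2a and Chrm4, given above, were the lower genes. Adora1 (0.18), Chrm1 (0.12), Chrm2 (0.12), Adora2b (0.03) and Drd5 (−0.12) were under the call size, and Chrm3 lay at 0.57. Drd3, Drd4 and Chrm5 had a mean under 1 FPKM.

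Downstream, 9 of 27 genes of the cyclic AMP and DARPP-32 cascade were lower and 1 was higher, with a median of −0.37. Rps6ka5, the kinase MSK1 that phosphorylates CREB and histone H3, was lowest at −1.22, from 18.5 to 7.38 FPKM. Adcy5, the main adenylyl cyclase of the striatum, stood at 184 FPKM in the wild type and 83.3 in HDQ150/150, with HDQ200/200 at 118 and HDQ315/+ at 98.3 (−1.14), with HDQ150/150 lowest. The substrates Arpp21 (−1.14) and Arpp19 (−0.68) and the striatum-enriched phosphatase gene Ptpn5 (−0.83) were lower as well. Calcineurin, the phosphatase that acts on DARPP-32, was lower in its catalytic subunit Ppp3ca (−0.64), a call lost with length correction and on scaled counts. Gnb5, the beta subunit that partners Rgs9, was at −0.62, a call that ended on scaled counts. Of the protein kinase A subunits, Prkacb (−0.12), Prkaca (0.29) and Prkar1a (−0.06) were under the call size, Prkar2b lay at −0.47, and the regulatory subunit gene Prkar1b was higher (0.69), from 139.7 to 225 FPKM. The transcription factor genes Creb1 (−0.10) and Crem (0.09) were under the call size.

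Phosphodiesterases, which break down cyclic nucleotides, split by subtype. Of 16 tested, Pde10a, Pde7b, Pde1b (−1.02) and Pde1c (−0.88) were lower and Pde1a was higher. Pde1a stood at 32.4 FPKM in HDQ150/150 against 15.3 in HDQ+/+, with 29.3 in HDQ200/200 and 15.0 in HDQ315/+, where HDQ150/150 and HDQ200/200 lay at about double the level of the other libraries (1.03). The cyclic AMP enzymes Pde4b (−0.47), Pde4a (0.36) and Pde4d (0.37) were under the call size. Among 16 RGS genes, Rgs9, Rgs4 (−0.93) and Rgs14 (−0.76) were lower and Rgs19 higher (0.75), with a median of −0.11, and of −0.43 among genes with a mean of at least 10 FPKM.

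Neuropeptide genes went both ways. Of 17 peptide and opioid receptor genes, 2 were lower, Penk and Pdyn, and 5 were higher. Cck, the cholecystokinin gene, abundant in cortical neurons (chromosome 9, 121489824 to 121495689), stood at 123 FPKM in the wild type and 366 in HDQ150/150, with HDQ200/200 at 134 and HDQ315/+ at 258 (1.57). HDQ150/150 was highest, with HDQ315/+ between it and the others. Vip (1.19), Adcyap1, the PACAP gene (1.14), Pnoc (0.66) and Crh (0.62) were the other higher genes, the most abundant being Vip at 10.03 FPKM in HDQ150/150, and the Crh call ended with length correction. Somatostatin (Sst, 0.33) and neuropeptide Y (Npy, 0.40), which striatal interneurons make, were under the call size. The list's median was 0.40, and it turned to −0.51 among genes with a mean of at least 10 FPKM. The opioid receptor genes Oprk1 (−0.42), Oprd1 (−0.34) and Oprl1 (0.52) were not called, and Oprm1 had a mean under 1 FPKM.

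Interneuron genes showed no common direction across classes. Cholinergic neurons had 2 of 7 genes lower, the choline transporter gene Slc5a7 (−0.67) and Chat, which makes acetylcholine (−0.60), with the other 5 between −0.23 and −0.57. Of 16 GABAergic interneuron genes, 3 were higher and 3 lower. Vip, Kcnc2, a fast potassium channel gene (0.73), and Pvalb, which encodes parvalbumin, were higher. Reln, which encodes the secreted protein reelin (−0.92), Pthlh (−0.75) and Gad2 (−0.71) were lower. Gad2, a GABA-synthesising enzyme that projection neurons also use, stood at 55.0 FPKM in HDQ150/150 against 90.7 in HDQ+/+, with 97.5 in HDQ200/200 and 77.2 in HDQ315/+, with HDQ200/200 above HDQ+/+, and its partner Gad1 lay at −0.42.

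Among ion channels, potassium channel genes held the most calls. Of 55 tested, 10 were higher and 4 lower, which is 18.2% and 7.27% where 2.91% and 3.32% of all genes were called. Their median was 0.14, and 0.01 among genes with a mean of at least 10 FPKM. The beta subunits went opposite ways, Kcnab1, a projection neuron gene, at −1.13 and Kcnab3 at 1.33. Kcnab3 stood at 7.91 FPKM in the wild type and 21.5 in HDQ150/150, with HDQ200/200 at 10.6 and HDQ315/+ at 10.6, with HDQ150/150 about double every other library. Kcnk4 (1.21, a feature merged with Tex40), Kcnc4 (1.12), Kcnh7 (0.92) and the G protein-gated channels Kcnj3 (0.90) and Kcnj9 (0.80) were also higher. On the lower side lay Kcnh4 (−0.70), and Kcnd2 (−0.63) and Kcna4 (−0.60), whose calls ended with length correction. Among 9 sodium channel genes, 1 was higher and Scn4b was lower. The pore-forming subunits Scn1a (−0.02), Scn2a1 (−0.25) and Scn8a (0.36) were under the call size.

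Among 18 voltage-gated calcium channel genes, the T-type channel gene Cacna1g was higher, at 12.7 FPKM in HDQ150/150 against 4.95 in HDQ+/+, with 7.26 in HDQ200/200 and 14.2 in HDQ315/+ (1.20), with HDQ315/+ as high. Cacna2d3 (−0.81) and Cacnb2 (−0.62) were lower. Of 15 calcium store genes, 4 were lower and none higher: Ryr1, Ryr3 (−1.13), the phospholipase gene Plcb1 (−0.78) and Itpr1, the main inositol trisphosphate receptor gene (−0.59). The Itpr1 call ended with median centring and with length correction. Ryr2, the third ryanodine receptor gene, was at 0.06.

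Ionotropic glutamate receptors held 1 call. Of 17 ionotropic receptor genes, the kainate receptor subunit gene Grik2 was lower, from 37.0 to 15.8 FPKM (−1.18), and none was higher. The AMPA receptor genes Gria1 (−0.25), Gria2 (−0.23) and Gria3 (−0.19) and the NMDA receptor gene Grin1 (0.03) were under the call size. Of 7 metabotropic receptor genes, 2 were lower, among them Grm5 (−0.81), and Grm2 was higher, with 6 of the 7 below 0 and a median of −0.35. Grm2 stood at 1.78 FPKM in the wild type and 6.00 in HDQ150/150, with HDQ200/200 at 2.87 and HDQ315/+ at 4.86 (1.33), highest in HDQ150/150. Of 14 GABA receptor genes, Gabbr2 (0.88) and Gabra5 (0.71) were higher and none was lower, with Gabrd nearest to it at −0.57. The serotonin receptor genes Htr1b (−0.90) and Htr1d (−0.61) were lower, of 9. The median of the 9 was 0.25, turning to −0.62 among genes with a mean of at least 10 FPKM.

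Neurotrophic genes held 2 higher members of 9. Bdnf, which cortical neurons supply to the striatum, stood at 3.97 FPKM in HDQ150/150 against 1.62 in HDQ+/+, with 2.61 in HDQ200/200 and 2.70 in HDQ315/+ (0.92), highest in HDQ150/150. Gfra2, a receptor gene for neurturin, was at 1.16. The receptors on the receiving side were not called: Ntrk2, the BDNF receptor gene, lay at −0.19, and Ntrk3 at −0.35.

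Transcription factors that build or maintain projection neurons were lower in 8 of 23 cases and higher in 1, with a median of −0.37, and of −0.71 among genes with a mean of at least 10 FPKM. The retinoid receptor genes Rxrg (−1.17) and Rarb (−1.08) were lower. Bcl11b, also called Ctip2, which is required for these neurons to mature, stood at 60.1 FPKM in the wild type and 27.7 in HDQ150/150, with HDQ200/200 at 44.0 and HDQ315/+ at 34.3 (−1.09), lowest in HDQ150/150. Foxo1 (−1.02), the merged Dlx6 feature (−0.86), Foxp1 (−0.81) and Meis2 (−0.78) were lower too, and so was Klf16 (−0.64), a call that ended on scaled counts. The early lineage factors Dlx1 (−0.12), Dlx5 (−0.30) and Dlx2 (−0.37) were under the call size. Mef2c, abundant in cortical neurons, was the higher one, at 54.9 FPKM in HDQ150/150 against 33.8 in HDQ+/+, with 64.7 in HDQ200/200 and 25.1 in HDQ315/+ (0.68), with HDQ200/200 higher still.

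Several gene groups held no call or 1. Over all genes, 2.91% were higher and 3.32% lower, so lists of this size would hold few calls at these shares. None of 26 heat shock and chaperone genes was called, with Hspa8 at 0.19, Hsp90aa1 at −0.09 and Hsp90b1 at −0.58, which passed the call size after length correction. No gene was called among 17 of the endoplasmic reticulum stress response, with Ddit3 at −0.02 and Hspa5 at −0.03. The same was true of 24 cholesterol synthesis genes, whose median was 0.06, of 31 proteasome subunits and of 13 repeat repair genes, among them Msh3 at −0.20 and Fan1 at −0.28. Of the proteasome subunits, 28 had a ratio above 0 and 3 below, with a median of 0.10, and of 0.03 with length correction. Of 34 nuclear genes of respiratory complexes III to V none was called, though 33 had a ratio above 0 and the median was 0.20, falling to 0.09 with length correction. Of the 9 polyglutamine disease genes, Htt alone was called.

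Glial, vascular and blood genes were also mostly level. These lists are short, and the shares over all genes, 2.91% higher and 3.32% lower, would give few calls. Of 17 astrocyte genes, the bicarbonate transporter gene Slc4a4 was lower (−0.75), with Gfap at 0.00, Aqp4 at 0.02 and Aldh1l1 at −0.15. None of 8 reactive astrocyte genes was called, the nearest being Serpina3n at 0.50, past the size with a pseudocount of 0.1 or scaled counts. Among 16 microglial and complement genes, 1 was higher, a call that length correction ended, and Cx3cr1 (−0.33), P2ry12 (0.27) and Csf1r (0.17) were not called. Mature oligodendrocytes had 2 of 18 genes lower, among them Ugt8a (−0.60, lost with length correction), and the other call was lost on scaled counts, while Mbp lay at −0.07 and Mog at 0.11. No gene of 12 of oligodendrocyte precursors was called. Of 17 vessel genes, the smooth muscle gene Tagln was lower (−0.89), with Cldn5 at −0.01 and Pecam1 at −0.19. The haemoglobin features, whose near-identical copies share reads, lay at −0.13 and −0.07.

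Activity-induced genes were divided. Of 23 immediate early genes, Egr2 (−1.28) and Egr3 were lower and Bdnf and Nr4a2 higher, with a median of −0.10. Fos (0.04), Arc (0.04) and Npas4 (−0.11) were close to level. Egr2 stood at 11.5 FPKM in the wild type and 4.18 in HDQ150/150, with HDQ200/200 at 3.61 and HDQ315/+ at 2.72, low in every mutant library. Among calcium-binding proteins, Necab3 (1.35), Ncald (0.96), Cabp1 (0.68) and Pvalb were higher and Necab2 (−0.75), Caln1 (−0.72) and Pcp4 lower, of 18. Of 10 neurofilament and microtubule genes, Stmn2, which regulates microtubule growth in axons, was higher, at 158 FPKM in HDQ150/150 against 71.3 in HDQ+/+, with 107 in HDQ200/200 and 130.0 in HDQ315/+ (1.14).

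**Figure D4:**
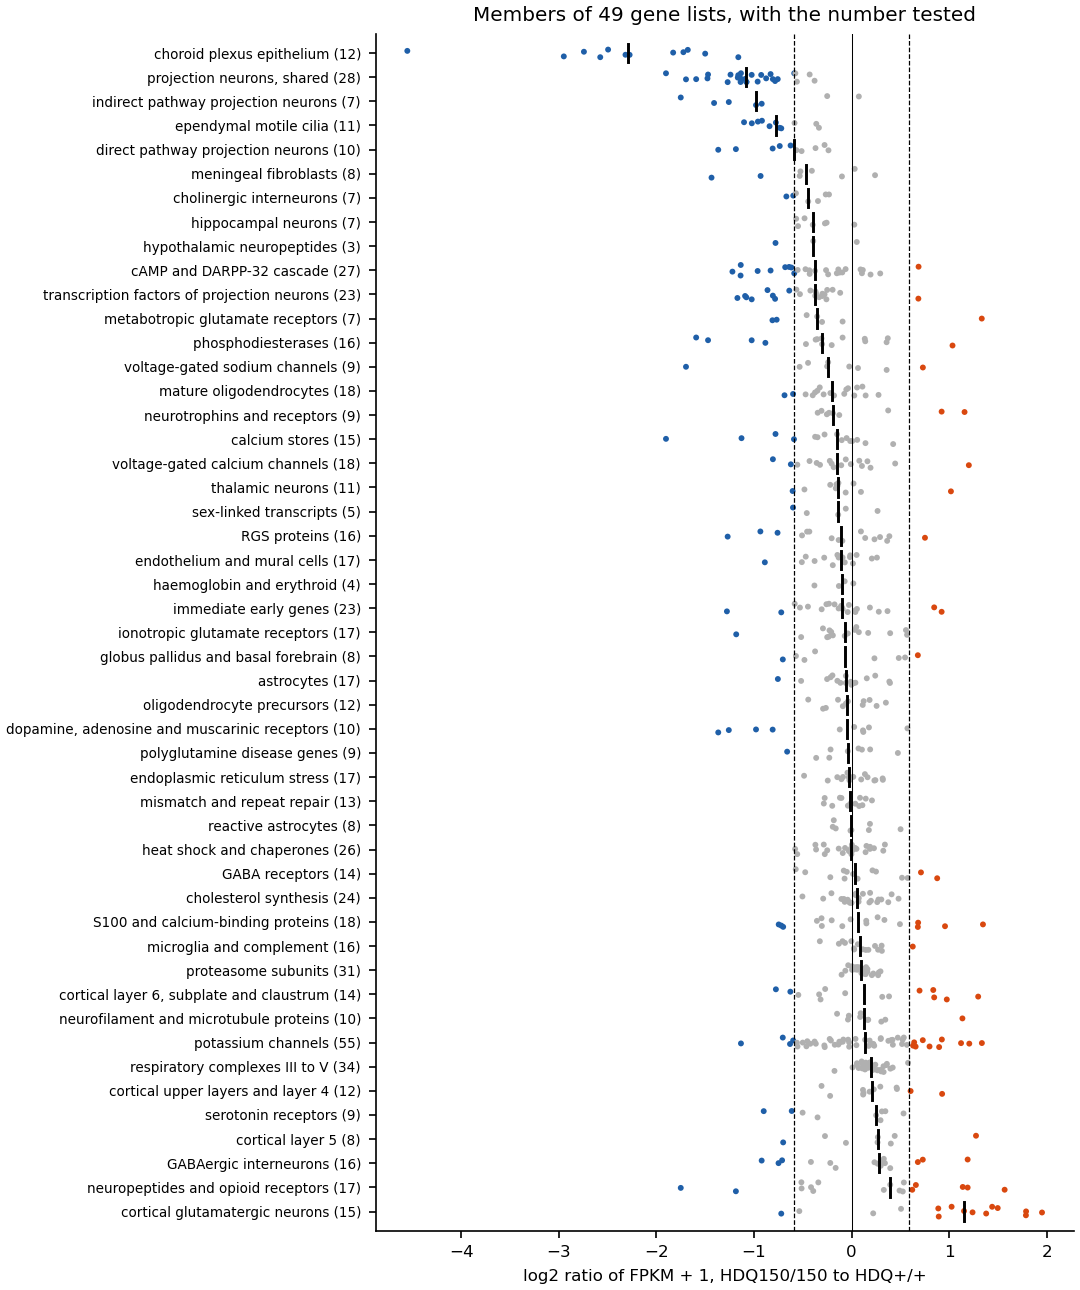
Each point is the log2 ratio of FPKM + 1, HDQ150/150 to HDQ+/+, of 1 tested member of 1 of 49 gene lists, with the number tested in brackets, the list's median as a black bar and the 1.5-fold size as dashed lines. Choroid plexus and projection neuron lists lie at the left, with medians of −2.29 and −1.08, and cortical glutamatergic genes at the right, with a median of 1.15. Lists can share members.

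The extremes also held genes that were not on these lists. Which cells express them was not examined, so they may belong to the same cell types. On the high side were Dkkl1 (1.76), Prdm8, a transcriptional repressor gene (1.71), Rtn4rl2, a Nogo receptor homologue (1.68), Tmem215 (1.61, which passed the filter only through HDQ150/150), Fam19a1 (1.58) and Cnih3, an auxiliary AMPA receptor subunit gene (1.56). Dkkl1 stood at 3.96 FPKM in the wild type and 15.7 in HDQ150/150, with HDQ200/200 at 4.80 and HDQ315/+ at 2.61 and was high in HDQ150/150 alone among the libraries. Mid1, an E3 ubiquitin ligase gene on the X chromosome, stood at 61.9 FPKM in HDQ150/150 against 20.2 in HDQ+/+, with 11.2 in HDQ200/200 and 24.4 in HDQ315/+, with HDQ200/200 lowest and HDQ150/150 highest (1.57). Xirp2, an actin-binding protein gene best known from muscle, was at 1.57 from 22 and 80 fragments. On the low side 2010001M06Rik stood at 34.0 FPKM in the wild type and 7.86 in HDQ150/150, with HDQ200/200 at 5.37 and HDQ315/+ at 24.8 (−1.98). Gm3893 lay at −1.98 but at 15.0 FPKM in HDQ200/200, and it spans a repeated region of chromosome 4 where reads may be shared between copies.

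The called genes were chosen by the ratio of HDQ150/150 to HDQ+/+, which by itself favours these libraries as the extremes of the 4, so the following counts are a description. Of the 375 higher genes, HDQ150/150 was the highest of the 4 libraries for 301, or 80.3%, and HDQ+/+ the lowest for 236, or 62.9%. Of the 428 lower genes, HDQ150/150 was the lowest of the 4 for 271, or 63.3%, and HDQ+/+ the highest for 348, or 81.3%. Both held for 179 higher and 218 lower genes. Over all 12877 genes, HDQ150/150 was highest for 1961 and lowest for 2376, and HDQ+/+ was highest for 2027 and lowest for 1951. Since all comparisons with the mutants use the same HDQ+/+ library, its own level enters each of them. Longer transcripts lay lower: over equal classes from the shortest to the longest transcripts, the median log2 ratio went from 0.08 through 0.05, −0.01 and −0.04 to −0.09. Of the called genes, 336 higher and 347 lower ones kept their call under every processing alternative that gave a value. Only median centring, upper quartile scaling, scaled counts and length correction could have ended a call.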

How the data were processed

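Poly A+ selected RNA gave TruSeq paired-end libraries, per the labels' protocols. The submitters' processing notes name Cufflinks 2.1.1, Cuffnorm, Cuffdiff, Bowtie2 2.1.0, TopHat2 2.0.11, bcl2fastq 1.8.4 and the mm10 build, with no role or order. The annotation, the strand setting and the scaling are not stated in these notes. FPKM per library is as the authors deposited it. The deposited count columns hold a scaled signal, not raw counts: 98.0% to 98.4% of values above 0 were whole multiples, to within 0.05, of a step particular to the library, which ran from 0.781 in HDQ+/+ to 1.27 in HDQ150/150. Dividing by the step gave fragments, from which depth was read.

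A pseudocount of 1 was added before the log, which understates the change of low genes. Transcript lengths came from GENCODE M21 for 12784 genes (99.3%), and the length trend was fitted by lowess with a fraction of 0.3. Python 3.11.15, numpy 2.4.6, pandas 2.3.3, scipy 1.17.1, statsmodels 0.14.6 and matplotlib 3.10.9 were used. The code of the call rule was run on simulated fragments with counting error only. Such fragments hold no spread between animals, so they cannot show how reliable the calls are. The 8 alternatives to each value covered the pseudocount, the filter, the scaling, scaled counts, transcript length and short RNA genes. Changing the filter or keeping the short RNA genes leaves a gene's ratio as it was. A smaller pseudocount only makes a ratio larger in size. These alternatives therefore cannot end the call of a gene. Merged features count as 1 gene, and overlapping genes may share reads. The members and the 49 gene lists were chosen with earlier results of these data known. Genes named are Htt, the 12 highest and 12 lowest with at least 50 fragments in the higher library, and in each list described up to 6 members with the largest change each way and members nearest 0 or defining the list. Some members of the lists are counted but not reported here by name.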

Additional observations from a re-analysis of the deposited data

Results flagged for a closer look

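Features of the table that carry no gene name were left out of the comparison. Of 600 such features with a mean of at least 1 FPKM and at least 50 fragments in the higher library, 35 were higher and 60 lower in HDQ150/150, which is 5.83% and 10% of them, where 2.91% and 3.32% of the named genes were called. The named genes were not filtered on fragments, so these shares come from unlike sets. The highest was at chromosome 10, 107199937 to 107205598 on mm10, and stood out because it lay above every other library: 3.43 FPKM in HDQ150/150 against 0.552 in HDQ+/+, with 1.52 in HDQ200/200 and 1.02 in HDQ315/+, a log2 ratio of 1.51 and a scaled count ratio of 6.61 (95% interval 3.78 to 12.2). The next, at chromosome 6, 41542563 to 41548356, stood at 2.36 FPKM in the wild type and 7.89 in HDQ150/150, with HDQ200/200 at 2.57 and HDQ315/+ at 1.07, a log2 ratio of 1.4 with a scaled count ratio of 3.76 (95% interval 2.92 to 4.87). Lower features changed by more: the lowest, at chromosome 18, 85071619 to 85083540, stood at 2.04 FPKM in HDQ150/150 against 18.5 in HDQ+/+, with 2.83 in HDQ200/200 and 10.5 in HDQ315/+ (−2.68), and the next, at chromosome 14, 76251304 to 76252279, lay at −1.97, from 6.94 to 1.02 FPKM. What these features encode was not examined.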

How the results depend on the processing

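No paired analysis was possible because each genotype has 1 library, and no replicate could be left out. The counts of higher and lower genes were 569 and 671 with a pseudocount of 0.1, 172 and 209 among the 6518 genes with a mean of at least 10 FPKM, and 93 and 94 at a 2-fold size. Scaled counts gave 694 higher and 595 lower genes, 53.8% of the calls being higher against 46.7% on FPKM. Of the calls on FPKM, scaled counts kept 366 higher and 398 lower, and length correction kept 341 and 364, in a total of 387 and 406. The log2 ratio of Htt was −0.53 with length correction, under the call size. Median centring, upper quartile scaling, no filter on low values and keeping the short RNA genes each gave counts within 1.5 times those reported. No called value changed sign under any alternative. Over the genes named or listed, 5333 values stayed on the same side of the call size, 28 fell under it and 97 passed it. Part of the 5333 was fixed in advance. No filter and keeping the short RNA genes each left all 716 genes the same by design, as did the higher filter for 448. Among list medians, 382 stayed on the same side, 8 passed the call size and 1, of the ependymal genes, went under it with a mean of at least 10 FPKM (−0.36). Changes of sign were not counted apart. With that filter, which leaves fewer genes, the serotonin receptor median went from 0.25 to −0.62 and is among the 8. The neuropeptide median turned from 0.40 to −0.51 and is among the 382. The share of genes called was 7.64% at a mean of 1 to 3 FPKM and 8.97% at 100 FPKM and above, and how depth limits the calls was not tested.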

Other observations

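The next 12 genes at each end of the comparison lie beyond those described above and were chosen after their values were seen. On the low side, Krt9 (−1.72), the checkpoint adaptor gene Clspn (−1.72), the transcription factor gene Mafa (−1.70), Ccdc135 (−1.70), 1110059M19Rik (−1.62) and the carbonic anhydrase gene Car12 (−1.60) stood highest in HDQ+/+. Ccdc135, 1110059M19Rik and Krt18 had a mean under 1 FPKM over the mutant libraries and passed the filter only through HDQ+/+, and Cort passed only through HDQ150/150, so their place among the extremes is a description. The glutathione peroxidase gene Gpx6 stood at 5.68 FPKM in the wild type and 1.21 in HDQ150/150, with HDQ200/200 at 1.44 and HDQ315/+ at 2.55 (−1.59). Krt18, a keratin gene of simple epithelia, stood at 0.272 FPKM in HDQ150/150 against 2.80 in HDQ+/+, with 0.397 in HDQ200/200 and 1.62 in HDQ315/+ (−1.58). On the high side lay the Nogo receptor gene Rtn4r (1.54), Myl4 (1.53), Olfm2 (1.52), Car10 (1.49), the neuritin gene Nrn1 (1.46), the syntaxin gene Stx1a (1.45), Camk2n2, an inhibitor of CaM kinase II (1.39), and the cortistatin gene Cort (1.4), with the predicted genes Gm10012 (1.53) and Gm11549 (1.51). Stx1a stood at 19.3 FPKM in the wild type and 54.5 in HDQ150/150, with HDQ200/200 at 28.7 and HDQ315/+ at 18.9. It was highest in HDQ150/150, and HDQ200/200 lay above HDQ+/+ too, at a log2 ratio of 0.55.

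Protein-coding transcripts of the mitochondrial genome gave 10 features, 8 of them listed above 0 in both libraries. Among the 10 were 3 of these 8 called higher, mt-Nd1 (0.88), mt-Nd5 (0.88) and mt-Nd2 (0.71), and the median of the 8 was 0.56 on FPKM. On scaled counts the median was 0.35 and 1 was past the call size. The list was added after the data were seen, and the features at 0 can be failed estimates.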
